A study of Mus musculus with 12 samples.

Results

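Fatty acid beta-oxidation genes with a differential m6A site were described here in mouse inguinal white adipose tissue (iWAT) in the cold. The members were Acadl, Acadm, Acads, Hadha, Acaa2, Decr1, Ehhadh, Etfa and Etfdh, and all rows that name 1 of these 9 genes were taken from both deposited tables of differential sites. This gave 10 sites in 9 genes, of 739 sites in 574 genes in all. The members were selected on the authors' calls of differential sites (fold and p) in these tables, so their direction and fold are a description without a test.

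The mice were 8-week-old C57BL/6 males, housed at 4 °C (cold) or at 30 °C (thermoneutral) for 7 days, with no other treatment or mutation. N6-methyladenosine, abbreviated m6A, is a methylated adenosine found inside mRNA, and it was measured by MeRIP-seq. There an antibody against m6A pulls methylated pieces out of fragmented mRNA (the m6A IP libraries), and a portion without this step serves as input. The libraries were 3 cold m6A IP, 3 thermoneutral m6A IP, 3 input of the cold and 3 input of the thermoneutral mice. The tissue is a whole fat pad, which holds blood vessel, immune and stromal cells beside adipocytes.

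In beta-oxidation, acyl-CoA molecules are shortened in rounds of dehydrogenation, hydration, a second oxidation and thiolytic cleavage. Mitochondrial acyl-CoA dehydrogenases differ in the chain length they prefer, and they pass their electrons to the electron transfer flavoprotein, from which a membrane enzyme hands them on to ubiquinone of the respiratory chain. Peroxisomes run a similar set of reactions with their own enzymes. In brown and beige adipocytes this oxidation feeds heat production in the cold.

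The fold below is a linear ratio, cold over thermoneutral, as the authors deposited it for each site, with its false discovery rate (FDR). The table headings abbreviate the groups as C and T, which were read as cold and thermoneutral from the initials in the sample titles. Only the finished comparison was analysed here, with no value of a single library. Depth is therefore unknown, and no fold has an SD or n. It is not stated in the sources used here whether the inputs entered the comparison, so a change in the amount of a transcript and a change in its methylation cannot be told apart. In a whole fat pad, a change in the share of a cell type and a change in RNA per cell cannot be told apart either.

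Of the 10 sites, 7 surrounded a stop codon, and the sequences shown here give the nearest possible m6A context to it. That context is the DRACH sequence of 5 bases in which m6A is commonly placed (A, G or T, then A or G, then AC, then A, C or T). For 6 of the 7 sites (all but Acaa2), the DRACH nearest the stop codon is printed in capitals with 10 bases on each side. For Ehhadh, the DRACH nearest to the middle of the site is printed in the same way. All sequences are from GRCm38 (mm10), read 5′ to 3′ on the transcribed strand, which is the minus strand for these 7 genes.
Acadl, chr1:66831421-66831445: agtgacagctAGACAtctgcctaca
Acadm, chr3:153922919-153922943: gtataaaaatTAACAggaattacta
Acads, chr5:115110827-115110851: ccctcctcggGGACTtgcctgcctg
Hadha, chr5:30119803-30119827: gttctaccagTGACAggccctccca
Decr1, chr4:15919018-15919042: gctcctaagaTGACCacaacttcat
Ehhadh, chr16:21762820-21762844: tcgttgttggTAACTgctatggatt
Etfa, chr9:55454735-55454759: gttcctgaaaTGACAgaaatactga

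In Acadl, Acadm and Hadha the printed DRACH overlapped the stop codon itself, which was TAG in Acadl, TAA in Acadm and TGA in Hadha. The A of its AC lay 1 base after the last base of the stop codon in Acadl and on that last base (position 0) in Acadm and Hadha. It lay 5 bases after the stop codon in Decr1 and 15 bases after it in Acads, where the printed DRACH is also a GGAC, the shorter core of the motif. In Etfa it lay 23 bases before the end of the stop codon, in the coding sequence. Another DRACH of Etfa, not printed, lay equally far from that end, 23 bases after it in the 3' UTR. In Acaa2, whose sequence is not printed, the A of the nearest DRACH lay 10 bases before the last base of the stop codon. A DRACH match is a description of the letters, and the antibody does not show which adenosine carries the mark.

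A further pair of sites ran from a coding exon into the following intron, in Hadha and Etfdh. The end of the exon inside each site is printed with 15 exon bases in capitals and 15 intron bases in lower case, from the minus strand of GRCm38. Both introns begin with the letters gt of a splice donor.
Hadha exon 9, chr5:30134043-30134072: TTGAAAATAATTGATgtgagtcctccctct
Etfdh exon 5, chr3:79618292-79618321: TATGCTGCTGCTGAGgtctgtatagatctg

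All 10 sites of the 9 genes were in the table of sites higher in cold, and 0 were in the table of lower sites. Over both tables, 40.7% of the 739 sites were higher, and 36.1% of the 574 genes had higher sites only. The rule used this contrast, so nothing is read from that difference. The folds of the 10 sites in the authors' deposited table ran from 5.03 (Hadha, last exon) to 23.4 (Etfdh), with a median of 6.43. The other 291 higher sites had a median of 11.9 and quartiles of 6.99 and 69.2. Hence 3 of the 10 folds (Etfdh, Ehhadh and Acadl) were above the median of the other higher sites, and 0 were above their upper quartile. Of the 10 folds 0 were whole multiples of 0.1, against 36 of the other 291 higher folds.

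**Figure D1:**
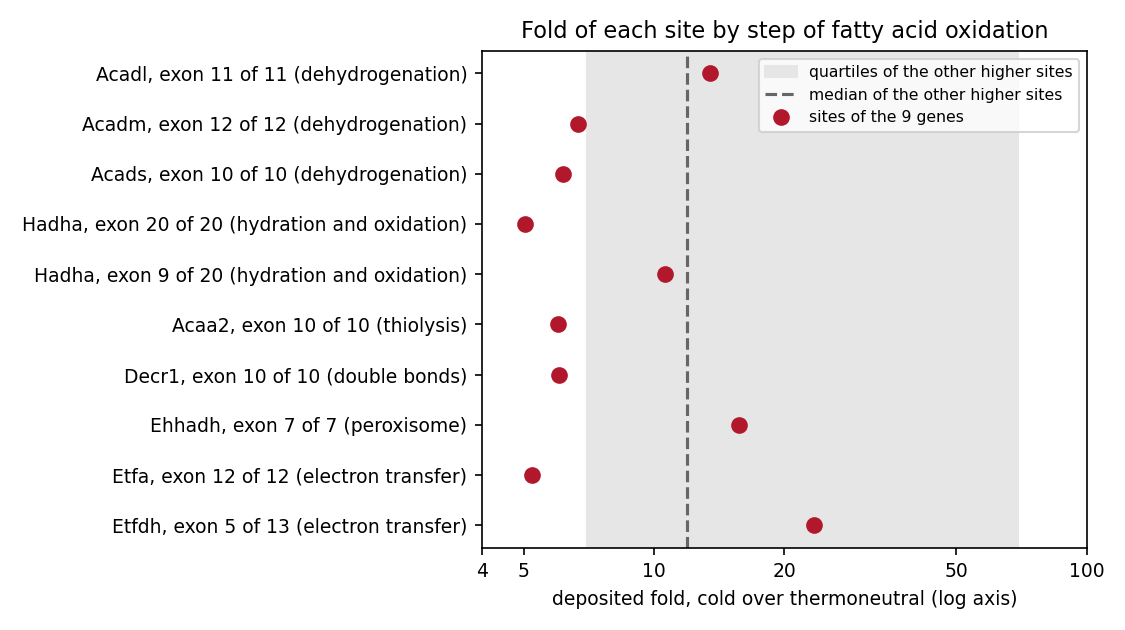
Deposited fold of each site, cold over thermoneutral, on a log axis, ordered by the step of the pathway. Points are the 10 sites, the dashed line is the median (11.9) and the grey band the quartiles (6.99 and 69.2) of the other 291 higher sites. Etfdh, Ehhadh and Acadl lie right of the dashed line and the remaining 7 sites left of it.

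The acyl-CoA dehydrogenases, which start each round, differed in fold from one to another. Acadl (Entrez gene 11363), the long-chain enzyme, had the largest fold of the 3, at 13.5 in the authors' deposited table (FDR 7.36e-08). Its site lay on chromosome 1 at 66830902 to 66831527, 626 bp in exon 11 of 11. Acadm (Entrez gene 11364), the medium-chain enzyme, had a fold of 6.68 (FDR 1.45e-07) at a site of 650 bp in exon 12 of 12, on chromosome 3 at 153922353 to 153923002. Acads (Entrez gene 11409), the short-chain enzyme, had a fold of 6.18 (FDR 7.93e-07) at a site of 708 bp in exon 10 of 10, on chromosome 5 at 115110299 to 115111006. Thus the deposited folds stood in the order of chain length, long before medium before short, but without values of single libraries it cannot be said whether any of these folds differ beyond the spread between mice.

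By deposited p, the Acadl site was rank 18 and the Acadm site rank 34 of the 301 higher sites, although by fold they were only rank 139 and rank 231. Acads was rank 158 by p and rank 246 by fold. The plot of fold against p shows these positions. The deposited p of the Acadl site was 2.91e-10 and that of the Etfdh site 2.46e-09, ranks 18 and 32.

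**Figure D2:**
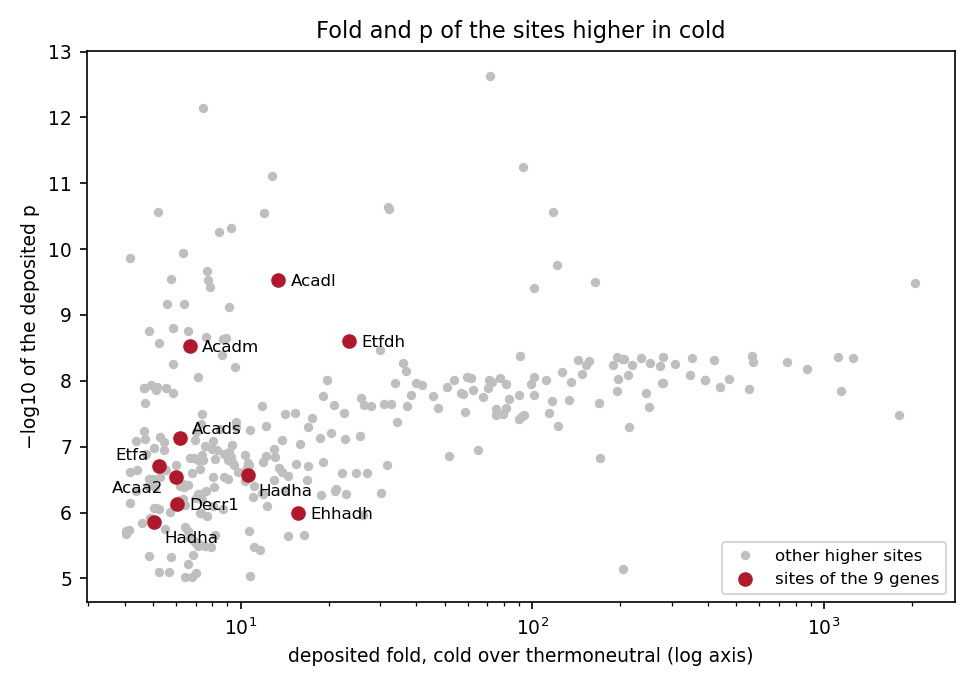
Deposited fold (log axis) against −log10 of the deposited p for the 301 sites higher in cold. Red points are the 10 sites of the 9 genes, with Hadha at both of its sites, and grey points are the other 291 higher sites. Acadl lies at a fold of 13.5 and a −log10 p of 9.54, and the last exon site of Hadha at 5.03 and 5.85.

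Hadha was the only one of the 9 genes with more than 1 site. Hadha (Entrez gene 97212) encodes the alpha subunit of the mitochondrial trifunctional protein, which hydrates and then oxidises long-chain intermediates. The site in exon 20 of 20 (chromosome 5, 30119282 to 30119960, 679 bp) had a fold of 5.03 (FDR 1.18e-05), the lowest of the 10 folds. The site at exon 9 of 20 (chromosome 5, 30133782 to 30134176, 395 bp) had a fold of 10.6 (FDR 2.55e-06). They lay 13821 bp apart on the genome, and both were higher in cold.

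Acaa2 (Entrez gene 52538), the mitochondrial thiolase that cleaves off acetyl-CoA, had a fold of 6.00 (FDR 2.66e-06) in the authors' deposited table. Its site lay on chromosome 18 at 74805855 to 74806207, 353 bp in exon 10 of 10. Decr1 (Entrez gene 67460), the mitochondrial dienoyl-CoA reductase needed for polyunsaturated fatty acids, had a fold of 6.03 (FDR 6.38e-06). Its site lay on chromosome 4 at 15918702 to 15919094, 393 bp in exon 10 of 10. Together with Acads, Acadm, Etfa and the last exon site of Hadha, these sites formed a narrow group of folds between 5.03 and 6.68.

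Ehhadh (Entrez gene 74147), the peroxisomal bifunctional enzyme that hydrates and oxidises its substrates in the manner of Hadha, had a fold of 15.7 (FDR 8.66e-06) in the authors' deposited table. The site lay on chromosome 16 at 21762422 to 21763336 in exon 7 of 7 and was the longest of the 10, at 915 bp. Its fold was the second largest of the 9 genes, whereas its deposited p of 1.02e-06 was rank 264 of 301. In the deposited annotation, Ehhadh was the single member with a peroxisomal term, and all 9 members carried a mitochondrial term, Ehhadh included.

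Both proteins that carry the electrons onward had a higher site. Etfa (Entrez gene 110842), the alpha subunit of the electron transfer flavoprotein, had a fold of 5.24 (FDR 1.90e-06) at a site on chromosome 9, 55454442 to 55454762, 321 bp at exon 12 of 12. Etfdh (Entrez gene 66841), the membrane enzyme that passes the electrons to ubiquinone, had the largest fold of the 10, at 23.4 (FDR 1.45e-07), on chromosome 3, 79618082 to 79618425, 344 bp at exon 5 of 13. Etfb, the beta subunit that pairs with Etfa, had no site in the tables.

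By position, 8 of the 10 sites lay in the last exon of the coding transcript used. So did 182 of the 279 other higher sites placed on a transcript (65.2%) and 310 of the 424 lower sites (73.1%). Of the 8 sites, 7 held the whole stop codon. The stop-holding sites began 38 (Etfa) to 152 (Acads) bases before the last base of the stop codon. They reached up to 574 bases into the 3' UTR (Acadm). The 3' UTR made up 67.3% (Etfa) to 88.3% (Acadm) of these 7 sites. The site of Acads covered its whole last exon of 708 bases, that of Acadm its whole last exon of 646 bases, and that of Decr1 only 21.2% of a last exon of 1855 bases. In Etfa, 66 of the 321 bases lay beyond the GENCODE transcript end, and all of them were inside the RefSeq transcript that the table names. In the last exon of Hadha, 141 bases of the site lay beyond the RefSeq transcript end and inside the longer GENCODE transcript.

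**Figure D3:**
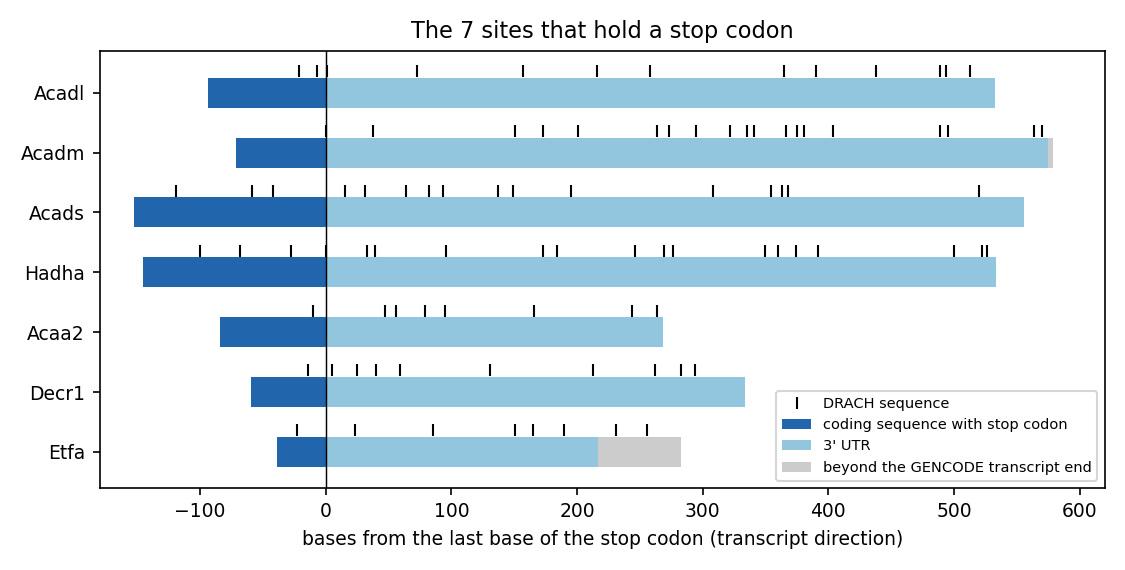
The 7 sites that hold a stop codon, drawn to scale in bases from the last base of that codon in the direction of the transcript. Dark blue is coding sequence, light blue 3' UTR, grey the bases beyond the GENCODE transcript end, and ticks mark the A of each DRACH sequence. Each site begins shortly before the stop codon, from 38 bases (Etfa) to 152 bases (Acads), and most of its length is 3' UTR.

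The Ehhadh site was unlike the other last exon sites, since it held no stop codon. It began 1252 bases and ended 338 bases before the last base of the stop codon, and all of its 915 bases were coding sequence. Its last exon of 2050 bases holds both the coding end and the 3' UTR, and 44.6% of it was covered.

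The sites of Hadha exon 9 and Etfdh exon 5 each held a coding exon of 119 bases and ran on into the next intron. The intron gave 276 of the 395 bases in Hadha and 225 of the 344 bases in Etfdh. In both genes the table names a UCSC transcript model rather than the RefSeq mRNA. The whole site lay inside 1 exon of Hadha-203 and of Etfdh-206, which GENCODE annotates as retained intron transcripts. Across the tables, 51 of 739 sites (6.90%) named such a UCSC model, and 58 of the other 703 placed sites (8.25%) held intron bases. Etfdh had no listed site in its last exon.

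**Figure D4:**
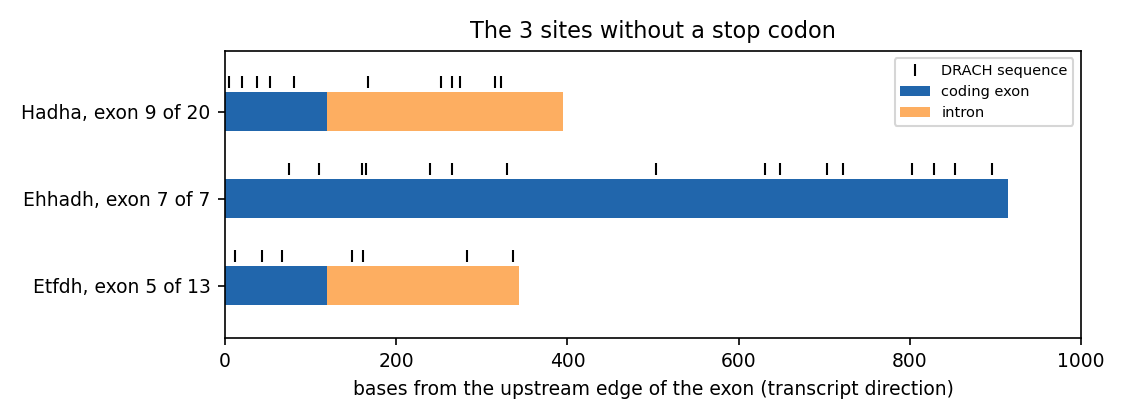
The 3 sites without a stop codon, in bases from the upstream edge of the exon in the direction of the transcript. Dark blue is coding exon, orange is intron, and ticks mark the A of each DRACH sequence. Hadha exon 9 and Etfdh exon 5 have 119 exon bases each and run 276 and 225 bases into the intron, and the Ehhadh site is coding over all 915 bases.

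All 10 sites had their upstream edge exactly on the upstream edge of an exon. Of the other higher sites, 83 of 279 placed sites (29.7%) had this, and of the lower sites 73 of 424 (17.2%). In the last exon alone it was 8 of 8 for the 9 genes and 59 of 182 (32.4%) for the other higher sites. The stop codon was held by 7 of the 10 sites (70.0%), by 88 of the 279 other higher sites (31.5%) and by 94 of the 424 lower sites (22.2%). In the last exon alone it was held by 7 of 8 sites of the 9 genes and by 87 of 182 other higher sites (47.8%). Sites of the 9 genes had a median length of 510.5 bp, against 419.0 bp for the other higher sites and 379.0 bp for the lower sites. These are counts over sites, which are not replicates, and no test was made. Of all 713 placed sites, 82.0% lay inside a single exon of the transcript used. The sources used here do not state how the authors set the edges of a site.

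**Figure D5:**
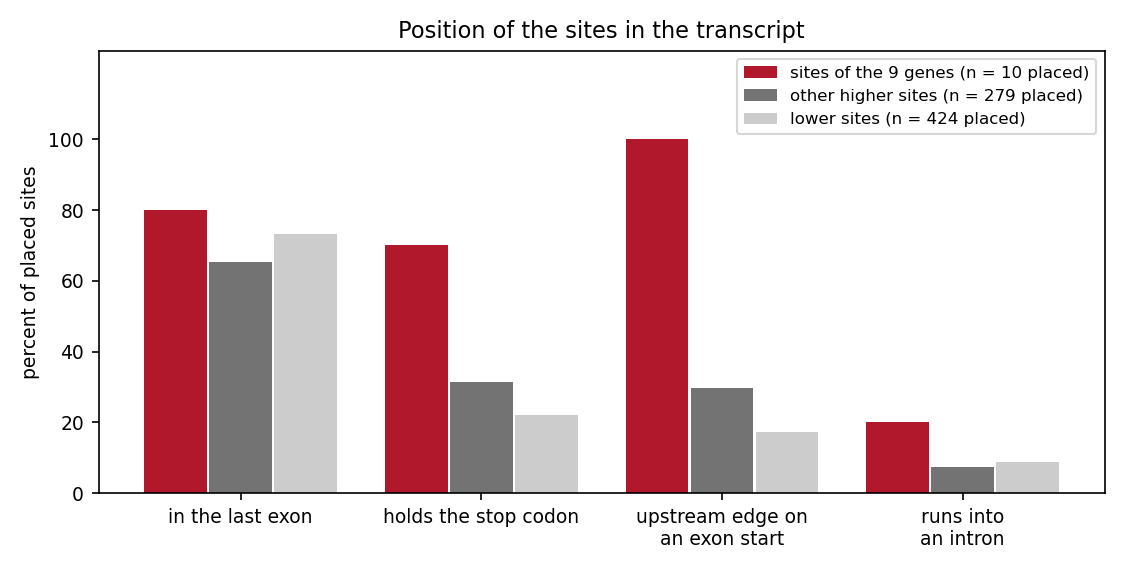
Percent of placed sites in the last exon, with the stop codon, with the upstream edge on the upstream edge of an exon other than the first, and with intron bases. Bars are the 10 sites of the 9 genes, the 279 other higher sites and the 424 lower sites. The upstream edge was on an exon edge in all 10 sites of the 9 genes, 29.7% of the other higher and 17.2% of the lower sites.

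The 10 sites held 127 DRACH sequences in 5384 bases, or 2.36 per 100 bases, against 2.23 per 100 bases in the other higher sites. The number per site ran from 7 (Etfdh) to 19 (Acadm and the last exon of Hadha). In 9 of the 10 sites the density was above that of the rest of the spliced transcript, in Etfa only by 2.49 against 2.46. The exception was Etfdh, with 2.03 in the site and 2.57 in the rest. The intron bases of a site were counted in the site. The same comparison was not made for the other listed sites, so it cannot be said whether 9 of 10 is unusual. The largest gap was that of Acadm, with 2.92 per 100 bases in the site and 1.71 in the rest. All 713 placed sites held at least 1 DRACH, so its presence sets no site apart.

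In the 7 sites with a stop codon, each had at least 1 DRACH within 50 bases of the last base of that codon. The same count was not made for other sites, so it cannot be said whether this is unusual. Of the 93 DRACH sequences in the 7 sites, 80 lay after the last base of the stop codon and 11 before it. Most bases of these sites also lay after it, since the 3' UTR made up 67.3% (Etfa) to 88.3% (Acadm) of each. The shorter GGAC was present in 8 of the 10 sites, absent from those of Acaa2 and Etfa, and most frequent in Acads, with 6. It was present in 86.0% of the other higher sites and in 82.6% of the other sites within the length range of the members. The base composition varied widely, with a GC content of 26.5% in the Etfa site and 60.3% in the Acads site, and a median of 43.7% over the 10 sites against 48.1% over the other higher sites.

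Some sites have near copies elsewhere in the genome. The Acadm site had 3 matches, the longest on chromosome 9 (7042071 to 7042711) with 85.3% identity over 655 aligned bases. The Etfa site matched chromosome 13 (111361880 to 111362119) with 93.3% identity over 240 bases, and the last exon site of Hadha matched chromosome 6 (92256160 to 92256395) with 87.8% identity over 237 bases. The other 7 sites had no such match. How the authors' alignment treated reads that fit several places is not given in the sources used here, so the values of Acadm, Etfa and the last exon of Hadha are less certain on this point. No other annotated gene overlapped any of the 10 sites on either strand.

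Of 37 genes of beta-oxidation and its electron transfer, 9 had a site, all higher only, and these were the 9 members. The members were selected on listed sites, and the list of 37 was made with earlier results known. These counts are therefore a description, and nothing is read from them about the pathway. Among all 574 listed genes, 36.1% had higher sites only. The 9 members included 3 of 8 acyl-CoA dehydrogenases of straight chains and 1 of 5 genes listed with the hydratases and hydroxyacyl-CoA dehydrogenases. Both subunits of the trifunctional protein were listed in that group of 5, although Hadhb is its thiolase subunit. Of the 2 other mitochondrial thiolases 1 had a site, and of the 4 auxiliary enzymes for double bonds 1. Among the 11 peroxisomal genes only Ehhadh had a site. The electron transfer genes had 2 of 3, and the 4 branched-chain and lysine pathway dehydrogenases that use the same acceptor had 0. Genes without a site included Acadvl, the very long-chain dehydrogenase, and Hadhb, the beta subunit that forms the trifunctional protein with Hadha.

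A missing site does not show that m6A was unchanged. The tables hold folds of at least 4.01 and sites of at least 300 bp. Of the 28 genes without a site, 4 (Acadvl, Ech1, Pecr and Etfb) had no exon of 300 bases in the transcript used, with last exons of 254 bases in Acadvl and 231 bases in Etfb. The other 24, Hadhb with a last exon of 537 bases among them, had a last exon of at least that length. Among the 9 genes with a site, Etfa had no exon of 300 bases in the transcript used either, with a last exon of 255 bases. Its site of 321 bases began on the edge of that exon and lay wholly inside the exons of its RefSeq transcript. The sites in Hadha exon 9 and Etfdh exon 5 lay on exons of 119 bases in the transcript used. Both sites lay inside 1 exon of a retained intron transcript, Hadha-203 and Etfdh-206. These exon lengths therefore depend on the transcript chosen. Over the 28 genes the median last exon was 599 bases, and over the 9 with a site 689 bases.

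The deposited annotation placed 9 genes of the tables in the KEGG pathway fatty acid degradation, 8 higher only and 1 lower only. Of the 8, 6 were members, and the others were Cpt1b (118-fold) and Cpt2 (4.67-fold) of the carnitine shuttle. The lower gene was Aldh3a2, a fatty aldehyde dehydrogenase, with a fold of 11.8 toward thermoneutral. Genes with a mitochondrial term numbered 91, with 67 higher only, 23 lower only and 1 in both directions. Those with a peroxisomal term numbered 9, with 3 higher only, Ehhadh among them, and 6 lower only. The share with higher sites only was 36.1% over all 574 listed genes.

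Markers of adipocytes and of muscle also had sites in the same tables. Of 12 brown and beige adipocyte markers, 6 had sites, all higher (Ucp1, Cidea, Dio2, Ppargc1a, Otop1 and Kcnk3, folds from 4.16 to 1137.8), and of 9 white adipocyte markers, 2 had sites, both lower (Lep and Nnat). Of 20 skeletal muscle markers, 8 had sites (Atp2a1, Casq1, Myh1, Myh2, Myh4, Neb, Pygm and Ttn), all higher, with folds from 5.51 to 169, and the other 12, Acta1 and Ckm among them, had none. For comparison, 36.1% of all 574 listed genes had higher sites only, and 351 genes had lower sites only. Muscle also uses the 9 enzymes, and the part of muscle or of beige adipocytes in their folds was not tested.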

How the data were processed

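MeRIP-seq libraries of iWAT were compared by the authors as finished tables. Per the study's methods, cutadapt trimmed the reads, Hisat2 aligned them to mm10, MACS2 called peaks and diffReps found the differential sites. Bowtie 0.12.2 stands in the submitters' processing notes beside MACS2 and HOMER, as do mm8 and mm10. The authors deposited for each site a linear ratio as fold, a p-value, an FDR and a score that is the −log10 of the p-value. Groups were taken from the sample titles, and no library values were used.

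Starts were read as counted from 0 and are given from 1. Sites were placed on the GENCODE M21 coding transcript with the longest coding sequence, which 713 of 739 sites had. Sequences came from GRCm38.p6, and copies were sought with BLAST 2.17.0. The tools were pysam 0.24.0, scipy 1.17.1, numpy 2.4.6 and pandas 2.3.3 under Python 3.11.15. Functions were tested on simulated data.

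All 9 members and every pathway gene with a site were named, by a rule on lists. Members and lists were chosen with earlier results of these data known. The marker lists are from general knowledge, and 1 gene of the pathway list is not reported here. Alternatives were thresholds of fold and p, 1 site per gene, folds in whole multiples of 0.1, other transcripts and motifs.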

Additional observations from a re-analysis of the deposited data

How the results depend on the processing

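Of the 20 alternatives, 13 left the value within 1.5 times (for the share of sites, within its 95% exact binomial interval) and 7 moved it. At a fold of at least 8, 4 sites in 4 genes were left (Acadl, Hadha, Ehhadh and Etfdh), beside 193 of all 301 higher sites, and so 4 of the 37 pathway genes. At a p of at most 1e-07, 4 sites in 4 genes were left (Acadl, Acadm, Acads and Etfdh), beside 168 of all 301 higher sites, again 4 of the 37. All sites of the 9 genes left were higher in cold. Counting GGAC in place of DRACH gave 0.390 per 100 bases, a rarer sequence by construction, against 0.457 over all higher sites. The median fold stayed between 6.11 and 6.68 in all its alternatives, 1 of them (last exon sites only) chosen after seeing the data. The share of sites with their midpoint in the 3' UTR was 70.0%, or 66.7% with the strongest site of each gene. It was 55.2% for the other higher sites and 56.4% for the lower sites, and the difference was not tested. No paired analysis was possible because the tables hold no value of a single library, and for the same reason no library could be left out. The depth of the libraries is unknown.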
